A study of Mus musculus with 4 samples.

Results

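The cells described here are muscle stem cells (satellite cells), taken from single-cell RNA-seq of mononuclear cells from dystrophic skeletal muscle. Barcodes entered with 500 or more unique molecular identifiers (UMIs), 300 or more genes and no more than 15% of UMIs from mitochondrial genes. A barcode was then called a Pax7/Myf5 cell when its UMIs of Pax7 and Myf5 summed to at least 2 and it had 0 UMIs of Myog, Pdgfra, Cdh5 and Ptprc. This gave 680 cells of 31077 kept barcodes, or 2.19%, out of 33554 barcodes deposited. The study compared mdx5cv/Ccr2-/- mice, which carry the mdx5cv dystrophin mutation and lack the chemokine receptor Ccr2, with mdx5cv mice that carry the dystrophin mutation alone. Diaphragm and quadriceps were taken from mice of both genotypes at 14 weeks of age, so every group was dystrophic and no healthy muscle was among them. Each of the 4 groups had 1 library (10x Genomics 3′ chemistry), and the number of animals behind a library is not given in the sources used here. No difference between libraries could therefore be tested, and the intervals below are exact 95% intervals for counting error only.

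Satellite cells lie between the myofibre and its basement membrane and are the source of new myonuclei when a fibre is damaged. Resting cells express the paired-box factor Pax7, mostly with Myf5, under Notch signalling; activated cells raise Myod1, divide, and then either return to rest or turn on Myog and fuse. In dystrophin-deficient muscle, repeated fibre damage keeps part of this pool active. Ccr2 guides monocytes from blood into damaged muscle.

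Over all kept barcodes, Ccr2 stood at 8.85 CPM (counts per 1e6 UMIs) in mdx5cv/Ccr2-/- diaphragm and 15.3 CPM in mdx5cv/Ccr2-/- quadriceps, against 132 CPM in mdx5cv diaphragm and 248 CPM in mdx5cv quadriceps. The 4 libraries thus matched their genotype labels, although which part of Ccr2 the allele removes is not given in the sources used here. Among the Pax7/Myf5 cells, Ccr2 had 0 UMIs in both mdx5cv/Ccr2-/- libraries, 1 UMI in mdx5cv diaphragm and 16 UMIs in mdx5cv quadriceps. Any pair of libraries shared 9 to 30 barcodes among all those deposited and 0 among the Pax7/Myf5 cells. The Pax7/Myf5 cells gave 6354471 UMIs in all, with library medians of 5777 to 6629 UMIs per cell and 4.45% to 4.88% mitochondrial UMIs.

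The cells carried the transcripts of satellite cells. Pax7 and Myf5, which chose them, were both present in 532 cells, while 82 cells had Pax7 without Myf5 and 66 had Myf5 without Pax7. Of the markers that the rule did not use, Cdh15 (M-cadherin, which joins the cell to its fibre) had 191 CPM in mdx5cv/Ccr2-/- diaphragm and 265 CPM in mdx5cv diaphragm, and 209.9 and 249 CPM in the quadriceps libraries of the same genotypes. Fgfr4, a fibroblast growth factor receptor of the muscle lineage, lay between 125 and 177 CPM in the 4 libraries. Chodl, which encodes the membrane lectin chondrolectin, had 509 CPM in mdx5cv/Ccr2-/- diaphragm and 348 CPM in mdx5cv diaphragm, against 639.7 and 635 CPM in mdx5cv/Ccr2-/- and mdx5cv quadriceps. Cells of other kinds were gated for comparison by at least 1 UMI of Pdgfra (fibroblasts), Cdh5 (endothelium), Ptprc (leukocytes) or Myog (committed myoblasts) and 0 of the others, the first 3 also with 0 of Pax7 and Myf5. At the threshold itself, 100 cells had a Pax7 and Myf5 sum of exactly 2, and 110 barcodes with a sum of 1 fell just outside. In the 4 libraries, Chodl was found in 62.5% to 92.3% of cells with a sum of 2, in 47.1% to 68.8% of those with a sum of 1 and in 72.7% to 85.6% of those with 3 or more. Median depths were 3782 to 5493.5, 2793 to 5369 and 6184 to 7888 UMIs in the same order. For Chodl there was no graded pattern across libraries, since in both mdx5cv libraries the share at a sum of 2 was above that at 3 or more. Fgfr4 rose with the sum in every library. It was found in 27.5% to 60.0% of cells at a sum of 1, 38.9% to 69.2% at 2 and 57.0% to 74.0% at 3 or more. Cdh15 was found in 37.5% to 61.5% of cells at a sum of 2 and 65.1% to 73.3% at 3 or more, lower at 2 in every library. Depth was also greater at 3 or more, and its part was not tested. A further 137 barcodes with a sum of at least 2 were left out for a UMI of Myog, Pdgfra, Cdh5 or Ptprc.

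Set against the 156 Myog-positive committed myoblasts of the same libraries, the Pax7/Myf5 cells had higher levels of part of the quiescence genes and lower levels of most contractile ones. The rule separated these classes by Pax7, Myf5 and Myog, and genes that follow those were bound to differ, so the values describe the cells and are no test. With the libraries pooled and 5 CPM added before the ratio, 239 of 5471 genes were at least 2-fold higher in Pax7/Myf5 cells (4.37%) and 217 at least 2-fold lower (3.97%). Chodl had 536 CPM in Pax7/Myf5 cells and 18 CPM in Myog-positive cells, a log2 ratio of 4.56. Gpx3, a secreted glutathione peroxidase, had 802 CPM against 98.3 CPM. Among the Notch genes, the receptor Notch3 had 172 CPM in Pax7/Myf5 cells and 16.7 CPM in Myog-positive cells. The Notch target Hes1 had 205 CPM against 50.6 CPM and Heyl, another target, 146 CPM against 34.3 CPM. Spry1, an inhibitor of growth factor signalling tied to the return to quiescence, had 169.8 CPM against 44.3 CPM, and the adhesion receptor Vcam1 had 443 CPM against 151 CPM. In the other direction, Mymk and Mymx, which encode the fusion proteins myomaker and myomixer, had 0.787 and 1.89 CPM in Pax7/Myf5 cells and 173 and 457 CPM in Myog-positive cells. Cardiac actin (Actc1) had 0.787 CPM against 745 CPM, and Myod1, the activation factor, 72.7 CPM against 437 CPM. Of 24 measured quiescence genes, 11 were at least 2-fold higher and 1 lower, with a median log2 ratio of 0.96. Of 21 sarcomere and early differentiation genes, 20 were at least 2-fold lower, with a median of −3.84, and the median over all 5471 genes was −0.03. Not all of these genes kept that direction in mdx5cv/Ccr2-/- diaphragm alone. There Mylpf had 49.5 CPM in Pax7/Myf5 cells against 10.1 CPM in Myog-positive cells, while Acta1 stayed lower, at 14.9 CPM against 104 CPM. The 19 Myog-positive cells of that library had the fibroblast gene Dcn at 3584 CPM, against 7.69 to 1080.2 CPM in the other libraries. The whole list of sarcomere and early differentiation genes still summed to 1661 to 2326 CPM in the Pax7/Myf5 cells of the 4 libraries, against 14593 CPM in Myog-positive cells, so contractile transcripts were lower but present.

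The Pax7/Myf5 share of kept barcodes was smaller in the diaphragm than in the quadriceps. It was 1.54% in mdx5cv/Ccr2-/- diaphragm (99 of 6446, interval 1.25% to 1.87%) and 1.65% in mdx5cv diaphragm (208 of 12582, 1.44% to 1.89%). It was 3.48% in mdx5cv/Ccr2-/- quadriceps (237 of 6811, 3.06% to 3.94%) and 2.60% in mdx5cv quadriceps (136 of 5238, 2.18% to 3.06%). The diaphragm share was thus 0.441 of the quadriceps share in mdx5cv/Ccr2-/- mice (0.345 to 0.560) and 0.637 of it in mdx5cv mice (0.510 to 0.796). Between genotypes, the mdx5cv/Ccr2-/- share was 1.34 times the mdx5cv share in quadriceps (1.08 to 1.67) and 0.929 times it in diaphragm (0.724 to 1.19). A share depends on how many other cells were recovered, so fewer satellite cells and more of the other cells cannot be told apart. Pdgfra-positive cells numbered 3590 of 6446 in mdx5cv/Ccr2-/- diaphragm and 5853 of 12582 in mdx5cv diaphragm, against 1307 of 6811 and 954 of 5238 in the quadriceps libraries of these genotypes.

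**Figure D1:**
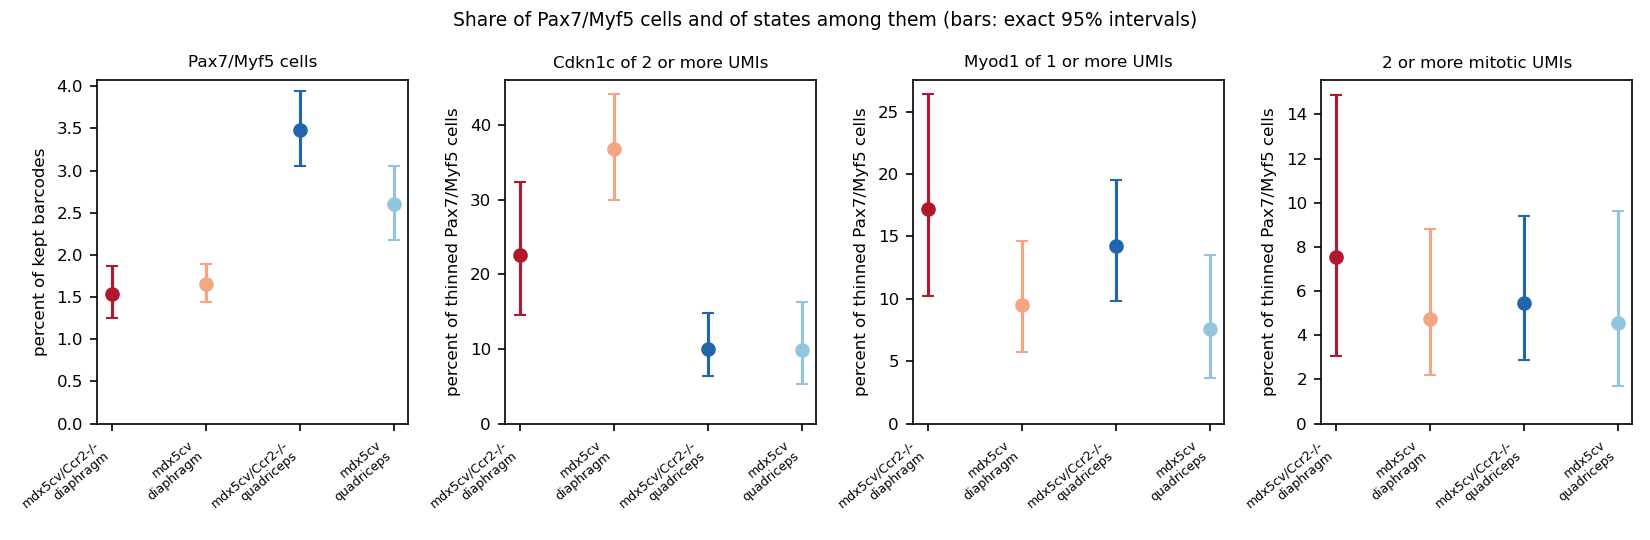
Percent of kept barcodes that are Pax7/Myf5 cells, and percent of Pax7/Myf5 cells thinned to 2000 UMIs that have 2 or more Cdkn1c UMIs, 1 or more Myod1 UMIs, or 2 or more UMIs over 12 mitotic genes, in the 4 libraries. Points are shares and bars are exact 95% intervals for counting error; the Pax7/Myf5 share is 1.54% and 1.65% in the diaphragm libraries and 3.48% and 2.60% in the quadriceps libraries.

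The Hox genes separated the satellite cells of diaphragm and quadriceps. They are the clustered transcription factors that record position along the body axis. Of 39 Hox genes in the files, 19 had at least 20 UMIs over the Pax7/Myf5 cells. All 10 of those in paralog groups 1 to 5, the anterior end of the series, had higher levels in both diaphragm libraries than in both quadriceps libraries, as had 15.5% of the 10748 genes with that many UMIs. All 6 of those in groups 8 to 13, the posterior end, had lower levels in both diaphragm libraries than in both quadriceps libraries, as had 22.6% of those genes. Of the 3 in groups 6 and 7, Hoxa7 was higher and Hoxc6 lower in both diaphragm libraries. Hoxb4 had 36.6 CPM in mdx5cv/Ccr2-/- diaphragm and 28.6 CPM in mdx5cv diaphragm, and 0 UMIs in both quadriceps libraries. Set against a floor of 3 UMIs per library, it was at least 26.8-fold higher in the diaphragm of mdx5cv/Ccr2-/- mice and at least 13-fold higher in that of mdx5cv mice. Hoxb2 had 36.6 and 35.9 CPM in mdx5cv/Ccr2-/- and mdx5cv diaphragm, against 1.82 CPM and 0 in the quadriceps libraries of these genotypes. In the other direction, Hoxc10 had 0 UMIs in both diaphragm libraries, against 63.3 and 50.5 CPM in mdx5cv/Ccr2-/- and mdx5cv quadriceps. It was at least 21.3-fold lower in the diaphragm of mdx5cv/Ccr2-/- mice and at least 30.0-fold lower in that of mdx5cv mice. Hoxa9 had 0.990 CPM and 0 in the diaphragm libraries of mdx5cv/Ccr2-/- and mdx5cv mice, against 30.1 and 21.2 CPM in the quadriceps libraries. Of the 19 genes, only Hoxa7, Hoxc6, Hoxc9 and Hoxc10 passed the filter on low counts used for the comparisons across all genes. The gene models of Hoxa3 and Hoxc5 overlap those of neighbours in their clusters on the same strand, so reads there could have been assigned to either gene.

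Hoxb4 and Hoxa9 stand for the anterior and the posterior end in these data, and the 250 bases before their RefSeq start sites are shown, 5′ to 3′ on the gene's strand (GRCm38.p6). The Hoxb4 sequence is chr11:96318017-96318266 on the plus strand and the Hoxa9 sequence chr6:52227371-52227620 on the minus strand, the second inside the longer gene model of the annotation, chr6:52223100-52231089. Capitals mark the E-box, CANNTG, the core that Myf5, Myod1 and other basic helix-loop-helix factors recognise.
Hoxb4: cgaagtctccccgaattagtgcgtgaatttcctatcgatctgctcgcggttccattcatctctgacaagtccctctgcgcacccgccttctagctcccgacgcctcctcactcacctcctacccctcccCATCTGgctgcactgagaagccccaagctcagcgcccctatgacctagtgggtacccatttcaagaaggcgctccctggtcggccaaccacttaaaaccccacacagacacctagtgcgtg
Hoxa9: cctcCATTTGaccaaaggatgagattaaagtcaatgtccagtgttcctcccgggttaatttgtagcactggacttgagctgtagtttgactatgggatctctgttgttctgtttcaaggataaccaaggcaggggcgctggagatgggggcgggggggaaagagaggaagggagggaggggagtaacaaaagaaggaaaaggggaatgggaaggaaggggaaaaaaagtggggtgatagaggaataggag
A script found 1 E-box in each, CATCTG from 121 to 116 bases before the start in Hoxb4 and CATTTG from 246 to 241 bases before it in Hoxa9. An E-box was in 66.2% of 32851 RefSeq promoters of this length, so its presence does not set these apart. The core of the MEIS factors, TGACAG on either strand, was in neither and in 15.9% of all promoters.

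Counted per cell, the same split was seen. At least 1 UMI of the 15 Hox genes of groups 1 to 5 was found in 74 of 99 cells of mdx5cv/Ccr2-/- diaphragm (74.7%, interval 65.0% to 82.9%) and 129 of 208 cells of mdx5cv diaphragm (62.0%, 55.0% to 68.6%). In the quadriceps it was found in 63 of 237 mdx5cv/Ccr2-/- cells (26.6%, 21.1% to 32.7%) and 30 of 136 mdx5cv cells (22.1%, 15.4% to 30.0%). At least 1 UMI of the 19 genes of groups 8 to 13 was found in 9.09% of cells of mdx5cv/Ccr2-/- diaphragm and 7.69% of mdx5cv diaphragm, against 71.3% and 77.2% in the quadriceps of these genotypes. Median depth was 6629 and 6023.5 UMIs in the diaphragm cells of mdx5cv/Ccr2-/- and mdx5cv mice, and 5777 and 6541.5 UMIs in the quadriceps cells. In Ptprc-positive leukocytes, which come from marrow and should carry little of the code, the summed anterior genes reached 7.55 to 14.5 CPM and the posterior ones 1.41 to 5.08 CPM. In Pax7/Myf5 cells the anterior sum was 200.1 and 173 CPM in mdx5cv/Ccr2-/- and mdx5cv diaphragm, against 36.4 and 27.8 CPM in the quadriceps. The Pdgfra-positive fibroblasts of the same libraries had nearly the same sums, 199 and 183 CPM against 38.7 and 42.5 CPM. The posterior sum in Pax7/Myf5 cells was 14.9 and 10.1 CPM in diaphragm against 218 and 217 CPM in quadriceps, and in Pdgfra-positive cells 36.8 and 33.9 CPM against 205 and 180.1 CPM. In Cdh5-positive endothelial cells the anterior sum was 164 and 140.0 CPM in diaphragm and 152 CPM in each quadriceps library, so the anterior difference between muscles was not seen there. Their posterior sum was 49.1 and 56.0 CPM in mdx5cv/Ccr2-/- and mdx5cv diaphragm, against 86.9 and 89.5 CPM in the quadriceps, lower in diaphragm as in the other cells. The Hox split was thus seen at both ends in satellite cells and fibroblasts, and at the posterior end in endothelial cells too.

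**Figure D2:**
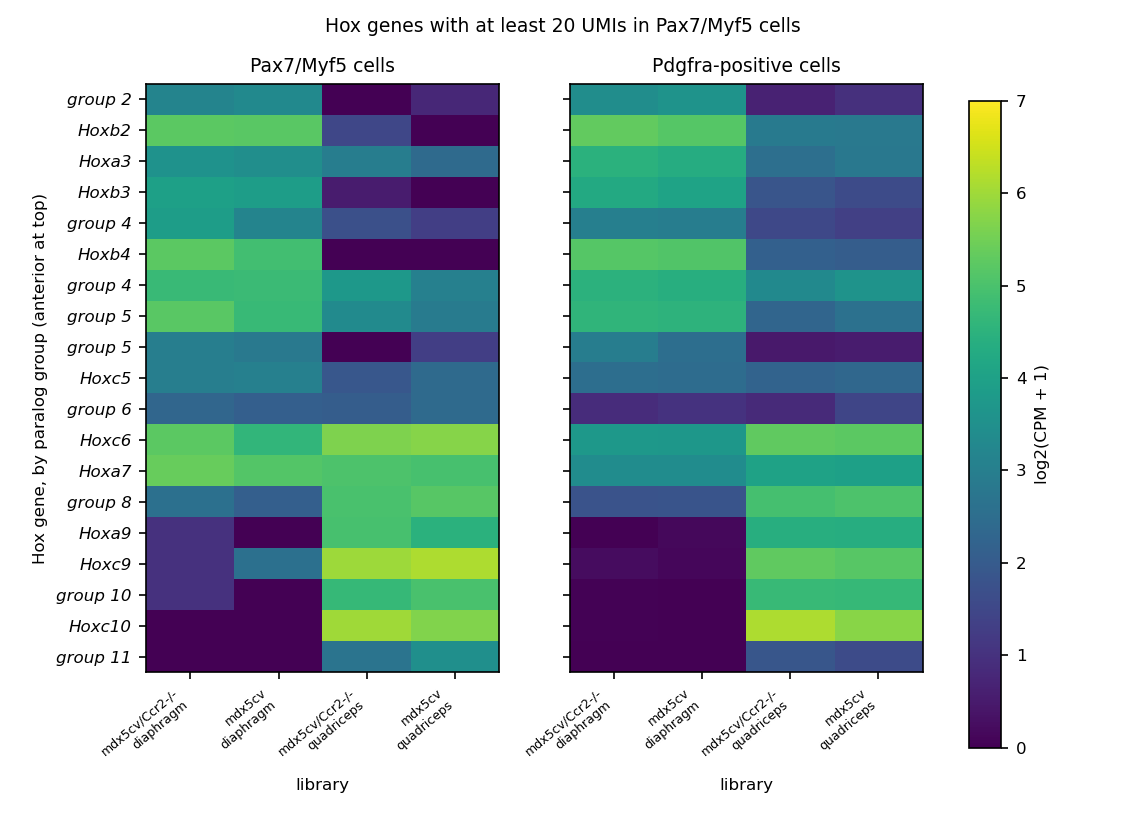
Level of 19 Hox genes, as log2(CPM + 1) of summed UMIs, in Pax7/Myf5 cells and in Pdgfra-positive cells of the 4 libraries, with paralog groups running from anterior at the top to posterior at the bottom; rows of genes not named in the text carry their paralog group. Both diaphragm columns are bright in the upper rows and dark in the lower rows, and both quadriceps columns the reverse, for example Hoxb4 at 36.6 and 28.6 CPM in diaphragm and 0 in quadriceps.

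Beyond the Hox genes, the developmental transcription factors Meis2, Pax3 and Tbx3 stood higher in the satellite cells of the diaphragm. Over 5465 measured genes, 18 were at least 2-fold higher in diaphragm than quadriceps in both genotypes (0.329%) and 24 at least 2-fold lower in both (0.439%). In mdx5cv/Ccr2-/- mice alone 46 were higher (0.842%) and 62 lower (1.13%), and in mdx5cv mice alone 66 were higher (1.21%) and 52 lower (0.952%). Meis2, a homeodomain partner of Hox proteins, stood farthest apart of the 18, with 131 CPM in mdx5cv/Ccr2-/- diaphragm and 141 CPM in mdx5cv diaphragm, against 3.64 and 1.46 CPM in mdx5cv/Ccr2-/- and mdx5cv quadriceps. The ratio was 35.9 in mdx5cv/Ccr2-/- mice (17.7 to 84.9) and 96.2 in mdx5cv mice (26.4 to 799). It was found in 56 of 99 and 123 of 208 diaphragm cells, against 8 of 237 and 2 of 136 quadriceps cells. Pax3, the paralog of Pax7 that drives migration of muscle progenitors in the embryo and persists in the satellite cells of some adult muscles, had 48.5 and 61.2 CPM in mdx5cv/Ccr2-/- and mdx5cv diaphragm, against 6.37 and 3.66 CPM in the quadriceps. Its ratio was 7.61 in mdx5cv/Ccr2-/- mice (4.14 to 14.9) and 16.7 in mdx5cv mice (6.95 to 52.5). Tbx3, a T-box repressor, had 47.5 and 43.8 CPM in mdx5cv/Ccr2-/- and mdx5cv diaphragm, against 3.64 and 4.39 CPM in the quadriceps. For all of Meis2, Pax3 and Tbx3 the diaphragm libraries lay above the quadriceps libraries without overlap, and the genotypes of 1 muscle lay close together. The genes were ranked by their ratios between muscles, so the lack of overlap describes them and is no test. Of 10748 genes with at least 20 UMIs, 15.5% had both diaphragm libraries above both quadriceps libraries. The gene models are at chr2:115863064-116065839 for Meis2, chr1:78101267-78197134 for Pax3 and chr5:119670669-119684724 for Tbx3 (GRCm38), on 3 different chromosomes.

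These 3 factors were not all a general mark of the diaphragm. In Pdgfra-positive cells, Pax3 reached at most 0.0429 CPM in any library. Tbx3 ran the other way in those cells, with 2.99 and 3.39 CPM in mdx5cv/Ccr2-/- and mdx5cv diaphragm, against 11.5 and 11.7 CPM in the quadriceps. Meis2 was higher in the diaphragm there too, with 118 and 132 CPM against 53.3 and 46.9 CPM. The Myog-positive cells, which descend from satellite cells, had Pax3 at 13.5 and 17.9 CPM in mdx5cv/Ccr2-/- and mdx5cv diaphragm, against 1.28 and 2.76 CPM in the quadriceps. These values rest on 19 and 68 diaphragm cells and 53 and 16 quadriceps cells. Both quadriceps values lie under the floor of 3 UMIs. Hoxb3os, an RNA on the strand opposite to Hoxb3 that overlaps it over 4859 bases, had 41.6 and 48.3 CPM in the diaphragm Pax7/Myf5 cells, against 0.455 and 1.46 CPM in the quadriceps. Whether strand was used in counting is not given in the sources used here, so its reads and those of Hoxb3 cannot be told apart. Of the 9 measured genes in a list of muscle position and embryonic myogenic factors, Pax3 and Tbx3 were at least 2-fold higher in diaphragm in both genotypes and none was that far lower.

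**Figure D3:**
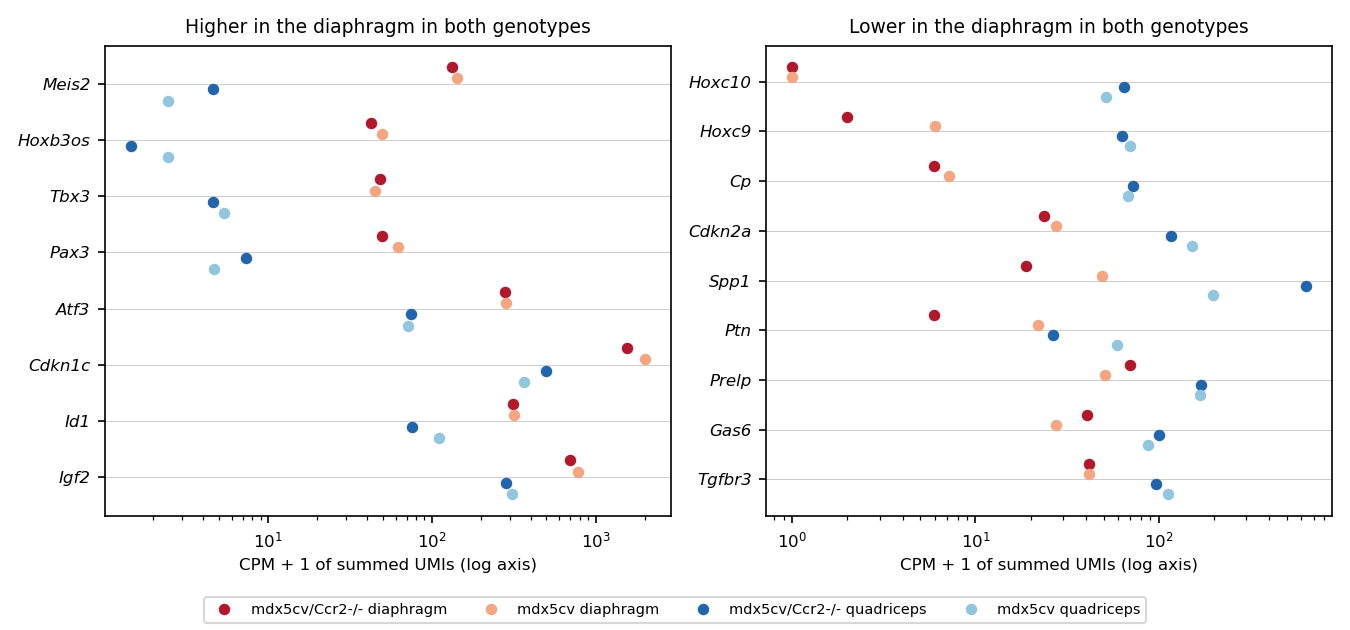
CPM + 1 of summed UMIs, on a log axis, for named genes among those farthest above and farthest below in diaphragm Pax7/Myf5 cells in both genotypes, 1 point per library. Red points are diaphragm and blue points quadriceps; for Meis2 the diaphragm points lie at 131 and 141 CPM and the quadriceps points at 3.64 and 1.46 CPM.

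A few genes of growth and cell cycle control also stood apart between muscles, namely Cdkn1c, Igf2 and Cdkn2a. Cdkn1c, an imprinted gene whose product p57 inhibits cyclin-dependent kinases and accompanies exit from the cell cycle, had 1538 and 1994 CPM in mdx5cv/Ccr2-/- and mdx5cv diaphragm, against 499 and 362 CPM in the quadriceps. Its ratio was 3.08 in mdx5cv/Ccr2-/- mice (2.85 to 3.33) and 5.52 in mdx5cv mice (5.02 to 6.07). Myog-positive cells had more Cdkn1c, at 1965 and 4314 CPM in mdx5cv/Ccr2-/- and mdx5cv diaphragm, against 2977 and 1868 CPM in the quadriceps. The direction between muscles was thus not shared by the Myog-positive cells of mdx5cv/Ccr2-/- mice. Igf2, the imprinted fetal insulin-like growth factor, had 690.3 and 776 CPM in the diaphragm libraries, against 282 and 307 CPM in the quadriceps libraries, and ratios of 2.45 (2.19 to 2.73) in mdx5cv/Ccr2-/- and 2.53 (2.27 to 2.83) in mdx5cv mice. Both genes lie on distal chromosome 7, Cdkn1c at chr7:143458339-143461050 and Igf2 at chr7:142650766-142666816 (GRCm38). H19, the noncoding neighbour of Igf2, had 191 and 351 CPM in mdx5cv/Ccr2-/- and mdx5cv diaphragm, against 111 and 176 CPM in the quadriceps. Of 12 measured genes in a list of imprinted growth genes, which was drawn up after these values were seen, 9 had a higher level in diaphragm in both genotypes, as had 25.4% of all measured genes. The medians were 0.20 in mdx5cv/Ccr2-/- and 0.63 in mdx5cv mice. In the other direction stood Cdkn2a, whose locus encodes the p16 and p19 inhibitors tied to senescence; counts by gene do not separate those products. Its model is at chr4:89274471-89294653. Cdkn2a had 22.8 and 26.4 CPM in mdx5cv/Ccr2-/- and mdx5cv diaphragm, against 116 and 151 CPM in the quadriceps. Its ratio was 0.197 (0.123 to 0.302) in mdx5cv/Ccr2-/- mice and 0.174 (0.124 to 0.240) in mdx5cv mice. It was found in 11.1% and 13.9% of diaphragm cells, against 38.0% and 49.3% of quadriceps cells, and the Myog-positive cells had it at 16.8 and 15.8 CPM in diaphragm against 141 and 176 CPM in quadriceps. The other genes of 12 measured in a list of cell cycle inhibitors were less than 2-fold apart in every comparison, among them Cdkn1a (p21) at 67.3 to 87.9 CPM and Cdkn1b (p27) at 90.0 to 111 CPM in the 4 libraries.

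Cdkn1c was concentrated in a minority of the cells, and this minority was larger in the diaphragm. With every cell thinned to 2000 UMIs, 2 or more Cdkn1c UMIs were found in 21 of 93 cells of mdx5cv/Ccr2-/- diaphragm (22.6%, interval 14.6% to 32.4%) and 70 of 190 of mdx5cv diaphragm (36.8%, 30.0% to 44.1%). In the quadriceps they were found in 22 of 219 mdx5cv/Ccr2-/- cells (10.0%, 6.40% to 14.8%) and 13 of 132 mdx5cv cells (9.85%, 5.35% to 16.3%). Over the 4 libraries these were 126 of 634 cells; 422 had 0 Cdkn1c UMIs and 86 had exactly 1, near the cutoff. The cells with 2 or more had 937 CPM of Mest, an imprinted gene of mesodermal progenitors, against 152 CPM in cells with 0, a log2 ratio of 2.59. H19 had 460.3 CPM against 104 CPM, Plagl1, an imprinted zinc-finger regulator, 425 CPM against 113 CPM, and the matrix protein gene Postn 595 CPM against 116 CPM. Cdh15 had 353 CPM against 207 CPM. Lower in the cells with 2 or more were Chodl, at 373 CPM against 1135 CPM, the matrix proteoglycan gene Prelp, at 39.7 CPM against 274 CPM, and the secreted factor gene Bmp4, at 27.8 CPM against 173 CPM. The immediate early gene Fos had 1190.5 CPM against 3118 CPM. These genes were picked by the size of their ratio or from the gene lists, which is a description of the cells and no test. Postn and Prelp are also genes of fibroblasts.

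**Figure D4:**
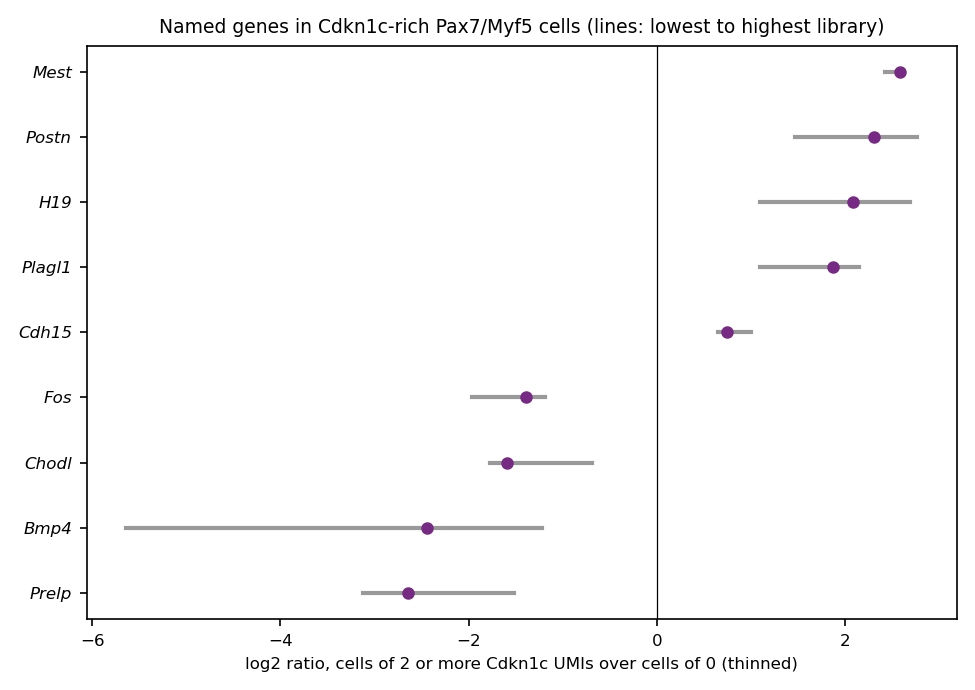
Log2 ratio of level, for genes named in the text, in Pax7/Myf5 cells with 2 or more Cdkn1c UMIs over cells with 0, each cell thinned to 2000 UMIs. Points are the 4 libraries pooled and lines run from the lowest to the highest library; Mest is at 2.59, above all others shown.

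The genes lower in diaphragm included genes of secreted proteins and receptors. Spp1, which encodes the secreted phosphoprotein osteopontin, had 17.8 and 48.3 CPM in mdx5cv/Ccr2-/- and mdx5cv diaphragm, against 637 and 196 CPM in the quadriceps. It came from few cells, 4 and 25 in the diaphragm libraries and 37 and 24 in the quadriceps libraries, and 1 cell gave 77.8% of its UMIs in mdx5cv/Ccr2-/- diaphragm. Spp1 is also a macrophage gene. Ptprc-positive cells had it at 193 and 799 CPM in mdx5cv/Ccr2-/- and mdx5cv diaphragm, against 1133 and 1355 CPM in the quadriceps. Pdgfra-positive cells had 4.12 and 15.2 CPM against 60.0 and 75.3 CPM, and Cdh5-positive and Myog-positive cells were lower in diaphragm too. The direction of Spp1 was thus not particular to satellite cells. The 15 macrophage and monocyte markers summed to 48.5 and 111 CPM in the diaphragm Pax7/Myf5 cells, against 211 and 381 CPM in the quadriceps ones. Ptprc was at 0 by rule and Csf1r at 0 to 4.10 CPM. Of the sums in mdx5cv/Ccr2-/- and mdx5cv quadriceps, Lyz2 gave 79.2 and 185 CPM, and 1 cell held 48.9% and 76.3% of its UMIs. The part of these markers in the Spp1 difference was not tested. Cp, which encodes the ferroxidase ceruloplasmin, had 4.95 and 6.17 CPM in mdx5cv/Ccr2-/- and mdx5cv diaphragm, against 71.0 and 66.6 CPM in the quadriceps, with ratios of 0.0697 (0.0223 to 0.166) and 0.0927 (0.0447 to 0.174). It was found in 3 and 6 diaphragm cells, against 91 and 51 quadriceps cells. The fibroblasts did not share that direction, since Pdgfra-positive cells had Cp at 98.6 and 85.9 CPM in diaphragm against 27.0 and 56.5 CPM in quadriceps. Tgfbr3, the betaglycan co-receptor of TGF-beta, had 40.6 and 40.4 CPM in mdx5cv/Ccr2-/- and mdx5cv diaphragm, against 95.6 and 112 CPM in the quadriceps. Gas6, a ligand of TAM receptors, had 39.6 and 26.4 CPM in the diaphragm libraries, against 98.8 and 86.4 CPM in the quadriceps libraries. Of the 42 genes apart in both genotypes, 8 had a level under 0.1 times that in leukocytes, fibroblasts or endothelial cells of the same libraries, namely Ccl2, Dcn, Klf2 and Lum on the higher side and Apoe, Lyz2, Maf and Rgs5 on the lower side.

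**Figure D5:**
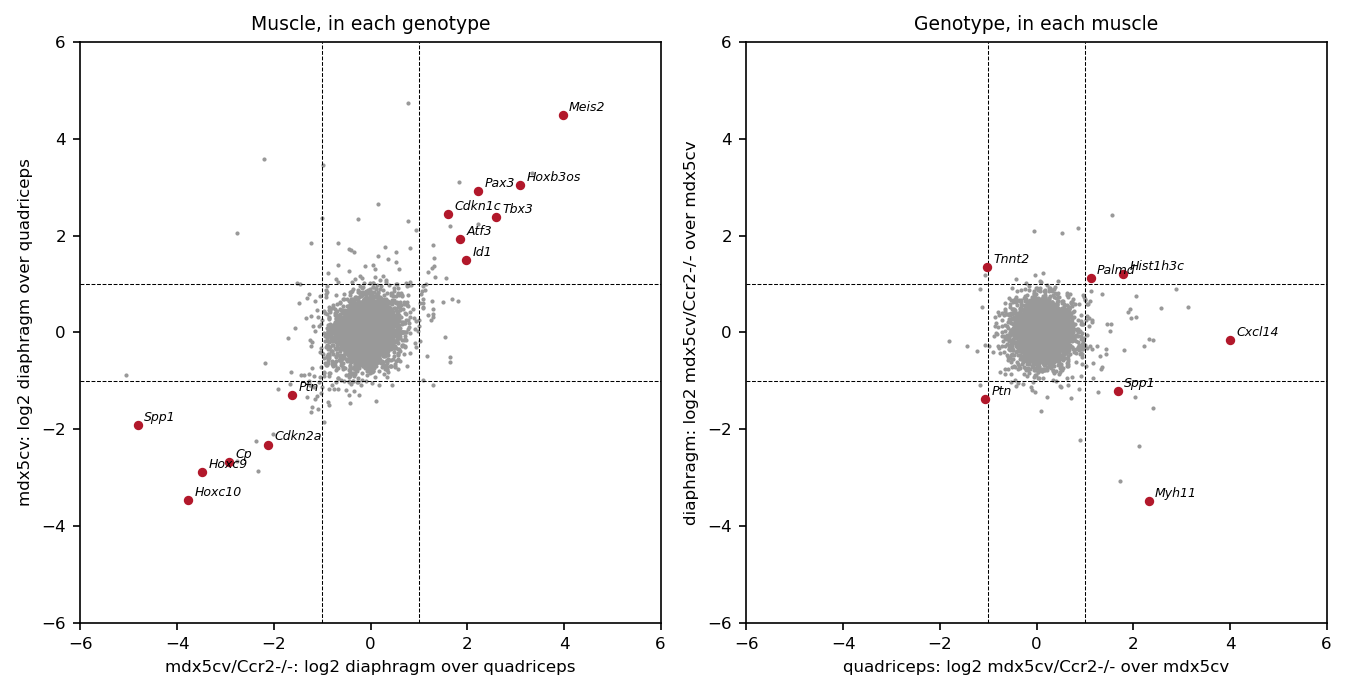
Log2 ratios of the 5465 measured genes in Pax7/Myf5 cells, with 5 CPM added, for diaphragm over quadriceps in each genotype (left) and for mdx5cv/Ccr2-/- over mdx5cv in each muscle (right). Dashed lines mark 2-fold; on the left Meis2, Pax3 and Tbx3 lie past both lines at the upper right and Hoxc10 at the lower left, and on the right 5 genes lie past both lines in the same direction. The comparisons on each side use different libraries on the 2 axes.

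Most genes of early stress responses had higher summed levels in the diaphragm cells. Of 24 measured immediate early genes, 19 had higher levels in diaphragm in both genotypes and 0 had lower levels in both, against 25.4% and 29.8% of all measured genes. At least 2-fold, 9 were higher and 1 lower in mdx5cv/Ccr2-/- mice, the 1 being Ccn2 at 21.8 CPM against 72.4 CPM, and 3 were higher and 0 lower in mdx5cv mice, with medians of 0.69 and 0.30 against medians of −0.07 and 0.04 over all measured genes. Counted per cell, the direction did not hold in mdx5cv mice. The median cell had 1.10% of its UMIs from immediate early genes in mdx5cv/Ccr2-/- diaphragm against 0.463% in mdx5cv/Ccr2-/- quadriceps, but 0.829% in mdx5cv diaphragm against 1.08% in mdx5cv quadriceps. Atf3, a stress-induced transcription factor, had 278 and 283 CPM in mdx5cv/Ccr2-/- and mdx5cv diaphragm, against 73.3 and 70.3 CPM in the quadriceps. Fos had 2255 and 1724 CPM in the diaphragm libraries, against 917 and 1366 CPM in the quadriceps libraries. Of 13 heat shock genes, 11 had higher levels in diaphragm in both genotypes, with Dnajb1, a co-chaperone, at 545 and 539.8 CPM against 238 and 222 CPM. Hspa1a did not share the direction in mdx5cv mice, with 1605 CPM in diaphragm and 2604 CPM in quadriceps. Atf3 had the same direction in Ptprc-positive cells of mdx5cv/Ccr2-/- and mdx5cv mice, with 476 and 675 CPM in diaphragm against 251 and 303 CPM in quadriceps. In Pdgfra-positive cells it had 48.3 and 110.5 CPM against 13.3 and 9.01 CPM. Dnajb1 had 323 and 347 CPM against 84.1 and 73.4 CPM in Ptprc-positive cells, and 101 and 192 CPM against 40.9 and 53.8 CPM in Pdgfra-positive cells. Both genes were also higher in diaphragm in Cdh5-positive and Myog-positive cells, so their direction was not particular to satellite cells. Id1, a target of BMP signalling, had 310.0 and 317 CPM in mdx5cv/Ccr2-/- and mdx5cv diaphragm, against 74.7 and 109 CPM in the quadriceps. Among the 17 measured TGF-beta and BMP genes, Id1 was at least 2-fold higher in diaphragm in both genotypes and Tgfbr3 at least 2-fold lower. Bmp4 had 55.5 and 47.7 CPM in mdx5cv/Ccr2-/- and mdx5cv diaphragm, against 76.0 and 139.8 CPM in the quadriceps, log2 ratios of −0.42 in mdx5cv/Ccr2-/- and −1.46 in mdx5cv mice whose difference was not tested.

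Between genotypes, far fewer genes stood apart in both muscles. In quadriceps, 53 genes were at least 2-fold higher in mdx5cv/Ccr2-/- cells (0.970%) and 10 lower (0.183%), and the median over all genes was 0.11 on the log2 scale. In diaphragm, 15 were higher (0.274%) and 26 lower (0.476%), with a median of 0.01; with each cell weighted equally these counts were 72 and 45. In both muscles, 3 genes were higher (0.0549%), Palmd, Hist1h3c and C3, and 2 were lower (0.0366%), Ptn and Lyz2. Of these, C3 and Lyz2 had levels under 0.1 times those in fibroblasts or leukocytes. A single cell gave 94.6% and 58.3% of the C3 UMIs in mdx5cv/Ccr2-/- diaphragm and quadriceps, and 76.3% of the Lyz2 UMIs in mdx5cv quadriceps. Palmd, which encodes the cytosolic protein palmdelphin, had 51.5 CPM in mdx5cv/Ccr2-/- diaphragm against 20.8 CPM in mdx5cv diaphragm, a ratio of 2.48 (1.60 to 3.89). In quadriceps it had 34.6 CPM in mdx5cv/Ccr2-/- cells against 13.2 CPM in mdx5cv cells, a ratio of 2.63 (1.56 to 4.67). It was found in 25.3% and 12% of the diaphragm cells and in 24.1% and 10.3% of the quadriceps cells of mdx5cv/Ccr2-/- and mdx5cv mice. Its diaphragm log2 ratio of 1.13 ran from 0.81 to 1.27 over the alternative settings, and its quadriceps one of 1.12 from 1.02 to 1.33. Palmd stood at 207 to 315 CPM in Cdh5-positive cells, and the 11 endothelial markers summed to 119.8 and 93.8 CPM in the mdx5cv/Ccr2-/- diaphragm and quadriceps Pax7/Myf5 cells, against 27.5 and 59.3 CPM in the mdx5cv ones; Cdh5 was at 0 by rule and Kdr at most at 3.96 CPM. Of those sums, Fabp4, a fatty acid binding protein gene, alone gave 88.1 and 58.3 CPM in the mdx5cv/Ccr2-/- libraries, against 15.7 and 30.0 CPM in the mdx5cv ones. The part of those markers in the Palmd difference was not tested. Ptn, the growth factor pleiotrophin, had 4.95 and 25.5 CPM in mdx5cv/Ccr2-/- diaphragm and quadriceps, against 20.8 and 58.5 CPM in mdx5cv. The first value rests on 5 UMIs in 4 cells. In quadriceps, Ptn was found in 12.7% of mdx5cv/Ccr2-/- cells and 13.2% of mdx5cv cells, and its log2 ratio of −1.06 ran from −1.17 to −0.60 over the alternative settings. Hist1h3c, a replication-dependent histone gene, had 77.3 and 75.6 CPM in mdx5cv/Ccr2-/- diaphragm and quadriceps, against 30.9 and 18.3 CPM in mdx5cv, but 1 cell gave between 22.9% and 88.0% of its UMIs in each library.

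Within quadriceps, most interferon response genes had lower summed levels in mdx5cv/Ccr2-/- cells. Of 12 measured, 3 were at least 2-fold lower and 0 higher, with a median of −0.53, and 8 of the 12 had lower levels in mdx5cv/Ccr2-/- cells in both muscles, as had 15.8% of all measured genes. Isg15, a ubiquitin-like modifier, had 15.5 CPM in mdx5cv/Ccr2-/- quadriceps against 50.5 CPM in mdx5cv quadriceps, and 66.4 CPM against 81.9 CPM in diaphragm. Few cells carried it, and 1 cell gave 47.8% of its UMIs in mdx5cv/Ccr2-/- diaphragm and 37.7% in mdx5cv quadriceps. Its quadriceps log2 ratio of −1.44 came to −0.82 with stricter cell filters, short of 2-fold. Gbp7, a guanylate-binding protein gene, had 17.8 CPM against 48.3 CPM in quadriceps and 31.7 CPM against 42.6 CPM in diaphragm. Its quadriceps log2 ratio of −1.23 came to −0.64 with cells weighted equally and to −0.88 with cells carrying further markers of other cell types left out. Iigp1, an immunity-related GTPase gene, had 8.65 CPM against 43.2 CPM in quadriceps and 34.7 CPM against 39.8 CPM in diaphragm; its level was under 0.1 times that in other cells of the libraries. For mdx5cv/Ccr2-/- against mdx5cv, Isg15 in Ptprc-positive cells had 47.4 against 158 CPM in quadriceps and 52.0 against 130.0 CPM in diaphragm. Gbp7 in Pdgfra-positive cells had 37.9 against 64.9 CPM and 58.3 against 93.3 CPM in the same order. The direction was thus seen in some other cells too. In Myog-positive cells Isg15 ran the other way in both muscles and Gbp7 in diaphragm. Isg15 was close between genotypes in Cdh5-positive cells, at 137 against 142 CPM and 164 against 162 CPM. The sums over the macrophage markers were lower in mdx5cv/Ccr2-/- Pax7/Myf5 cells, as given above, and their part in the interferon values was not tested. The 10 measured MHC and peptide loading genes had 0 at least 2-fold apart in either muscle.

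Genes of the cell cycle mostly had higher levels in mdx5cv/Ccr2-/- cells, with few as far as 2-fold apart. Of 24 measured, 17 had higher levels in mdx5cv/Ccr2-/- cells in both muscles and 0 had lower levels in both, against 34.1% and 15.8% of all measured genes, with medians of 0.47 in quadriceps and 0.20 in diaphragm. Ccnd1, the cyclin of early G1, had 287 CPM in mdx5cv/Ccr2-/- quadriceps against 139.8 CPM in mdx5cv quadriceps, a ratio of 2.06 (1.75 to 2.43), and 242 CPM against 148 CPM in diaphragm, a ratio of 1.64 (1.37 to 1.96). Top2a, the topoisomerase of replicating cells, had 97.9 CPM against 43.2 CPM in quadriceps and 89.1 CPM against 71.8 CPM in diaphragm. The shares of dividing cells were closer. With cells thinned to 2000 UMIs, 2 or more UMIs over 12 mitotic genes were found in 7 of 93 mdx5cv/Ccr2-/- cells against 9 of 190 mdx5cv cells in diaphragm, or 7.53% (3.08% to 14.9%) against 4.74% (2.19% to 8.80%). In quadriceps they were found in 12 of 219 against 6 of 132 cells, or 5.48% (2.86% to 9.38%) against 4.55% (1.69% to 9.63%), and these intervals overlapped. Without thinning, cells with 2 or more mitotic UMIs were 10.1% to 13.1% of the Pax7/Myf5 cells in the 4 libraries but held 25% to 33.2% of their UMIs. Deeper cells reach 2 mitotic UMIs more easily, so part of that UMI share follows from the choice. With these cells left out, the cell cycle median was 0.22 in quadriceps and −0.05 in diaphragm. They were picked by cell cycle genes, so these medians are a description and no test. Among thinned cells, those with 2 or more mitotic UMIs had Hmgb2, a chromatin protein gene of dividing cells, at 1368 CPM, against 56.2 CPM in those with 0. Chodl had 73.5 CPM against 1009.8 CPM and Pax7 162 CPM against 432 CPM. The cells were chosen by raw UMIs of Pax7 and Myf5, a cutoff that deeper cells pass at a lower Pax7 level. The Pax7 values are therefore partly set by the rule and are no test.

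Myod1, by summed level, stood apart between genotypes in diaphragm and not in quadriceps, a difference that was not tested. It had 109 CPM in mdx5cv/Ccr2-/- diaphragm against 45.5 CPM in mdx5cv diaphragm, a ratio of 2.40 (1.78 to 3.23), but 75.1 CPM against 77.6 CPM in quadriceps. In thinned cells, a Myod1 UMI was found in 16 of 93 mdx5cv/Ccr2-/- against 18 of 190 mdx5cv diaphragm cells, or 17.2% (10.2% to 26.4%) against 9.47% (5.71% to 14.6%). In quadriceps it was found in 31 of 219 against 10 of 132 cells, or 14.2% (9.82% to 19.5%) against 7.58% (3.69% to 13.5%). Both pairs of intervals overlapped. Over all libraries 75 of 634 thinned cells had Myod1, 126 had 2 or more Cdkn1c UMIs and 34 had 2 or more mitotic UMIs. Of the cells with Myod1, 7 had 2 or more Cdkn1c UMIs (9.33%), as had 19.9% of all thinned cells. Of the cells with 2 or more mitotic UMIs, 5 had Myod1 (14.7%), as had 11.8% of all thinned cells. Also of these, 5 had 2 or more Cdkn1c UMIs (14.7%), against 19.9% of all thinned cells. Cells with Myod1 had Cdkn1c at 253 CPM against 852 CPM in cells without, and Ccnd1 at 267 CPM against 137 CPM. Of the 17 measured activation and commitment genes, Myod1 was the 1 at least 2-fold higher in mdx5cv/Ccr2-/- diaphragm, and 0 were apart in quadriceps.

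Few of the quiescence, Notch and growth factor genes were 2-fold apart. Of 26 measured quiescence genes, 0 were at least 2-fold apart between genotypes in either muscle, and the medians were −0.01 in quadriceps and 0.17 in diaphragm. Between muscles, 3 of the quiescence genes were higher and 1 lower in diaphragm in mdx5cv/Ccr2-/- mice, and 1 was higher and 1 lower in mdx5cv mice. Of 12 Notch genes, Hey1, a Notch target, was the 1 past 2-fold, between muscles in mdx5cv/Ccr2-/- mice, with a log2 ratio of 1.06 there and 0.86 in mdx5cv mice. It had 65.4 and 64.0 CPM in mdx5cv/Ccr2-/- and mdx5cv diaphragm, against 28.7 and 32.9 CPM in the quadriceps. The receptors Notch1, at 62.2 to 85.3 CPM, Notch2, at 39.8 to 50.5 CPM, and Notch3, at 136 to 196 CPM, and the targets Hes1 and Heyl had like levels in the 4 libraries. Of 10 measured genes of FGF, HGF and ERK feedback, Dusp6, a phosphatase that inactivates ERK, was the 1 past 2-fold, with 41.9 CPM in mdx5cv/Ccr2-/- quadriceps against 18.3 CPM in mdx5cv quadriceps. Of 6 measured Wnt genes, 19 adhesion and surface receptor genes and 15 genes of the dystrophin and utrophin complex, 0 were at least 2-fold apart in any of the 4 comparisons. Dmd itself, which carries the mdx5cv mutation in all groups, was still counted at 74.3 and 49.9 CPM in mdx5cv/Ccr2-/- and mdx5cv diaphragm, and 74.7 and 80.5 CPM in the quadriceps. Utrn, its paralog, had 104 to 121 CPM in the 4 libraries. A count of 3′ ends does not show whether the transcript encodes the protein. Of 24 basement membrane and niche matrix genes, 4 were at least 2-fold higher in mdx5cv/Ccr2-/- quadriceps and 0 lower, with a median of 0.45 and 22 of the 24 above 0. Of all 5465 measured genes, 3669 were above 0 in that comparison, with a median of 0.11. In diaphragm 0 were higher and 1 lower in mdx5cv/Ccr2-/- cells. Between muscles, 2 were higher and 5 lower in diaphragm in mdx5cv/Ccr2-/- mice, and 3 higher and 2 lower in mdx5cv mice. The 13 fibroblast markers summed to 3775 CPM in mdx5cv/Ccr2-/- quadriceps against 2551 CPM in mdx5cv quadriceps, with Pdgfra at 0 by rule, and their part in the matrix values was not tested. Of the 53 genes higher in mdx5cv/Ccr2-/- quadriceps, 17 had levels under 0.1 times those in fibroblasts, leukocytes or endothelial cells. Fibroblast markers held over 1% of UMIs in 3 and 4 cells of mdx5cv/Ccr2-/- and mdx5cv diaphragm and in 2 and 0 cells of the quadriceps of these genotypes. With those cells left out, an alternative added after the data were seen, 38 genes were at least 2-fold higher in mdx5cv/Ccr2-/- quadriceps in place of 53.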

How the data were processed

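The data were single-cell 3′ RNA-seq counts of mononuclear cells from 4 mouse muscle libraries, 1 for each of 4 groups. The authors deposited a matrix of raw UMI counts per gene and barcode for each library; per the submitters' processing notes these came from Cell Ranger 6.1.2 and the mm10 genome. The sources used here do not give the annotation, or whether introns and strand were counted. All 32285 genes were read as deposited.

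UMIs of the 680 Pax7/Myf5 cells were summed per library and scaled to CPM (python 3.11.15, numpy 2.4.6, scipy 1.17.1, pandas 2.3.3). Genes with a mean of at least 20 CPM and at least 50 UMIs were compared (5465), as log2 ratios after adding 5 CPM, which understates the change of low genes. At least 2-fold means an absolute log2 ratio of 1 or more. With 1 library per group there was no replicate, so no test was made. Intervals of shares are exact Clopper-Pearson and those of ratios exact conditional binomial, at 95%; a count of 0 was set against a floor of 3 UMIs per library. For shares of cells with a transcript, cells were thinned to 2000 UMIs, which left 634 of 680.

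Doublets were kept in the main values; as an alternative, the highest Scrublet scores of each library (scanpy 1.11.5), 0.8% per 1000 barcodes, were removed. Other alternatives changed the Pax7 and Myf5 threshold, the cell filters, the scaling, the filter on low counts, the pseudocount or the weight of each cell. The genes named were members of 34 gene lists, the first 12 in each direction by the smaller of the ratios from both comparisons, and the first 5 of each single comparison. Mitochondrial, ribosomal and sex-linked genes, and genes under 0.1 times their CPM in leukocytes, fibroblasts or endothelial cells, were left out of that ranking. Some genes that meet this rule are not reported here. The cells and the lists were chosen with earlier results of these data known, and 1 list was added after its genes' values were seen. The summing and ratio steps were tested on simulated data.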

Additional observations from a re-analysis of the deposited data

Results flagged for a closer look

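In the results below, the difference between genotypes ran one way in 1 muscle and the other way in the other, or the difference between muscles did so between genotypes. With 1 library per group, none of these differences of differences was tested.

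Contractile genes of smooth muscle and mural cells made up most of them. For mdx5cv/Ccr2-/- over mdx5cv, the log2 ratio of Myh11, the smooth muscle myosin, was 2.32 in quadriceps and −3.48 in diaphragm. Myl9 had 1.73 in quadriceps and −3.08 in diaphragm, and Tagln 2.04 and −1.34. For diaphragm over quadriceps, Myh11 had −2.21 in mdx5cv/Ccr2-/- and 3.59 in mdx5cv mice, Myl9 −2.76 and 2.05, Tagln −1.0 and 2.37, and Mylk −1.24 and 1.86. Single cells carried much of these sums. In mdx5cv diaphragm 1 cell held 83.8% of the Myh11 UMIs, 72.2% of those of Mylk, 63.1% of those of Myl9 and 40.2% of those of Tagln. The 10 mural markers summed to 507 and 740.2 CPM in mdx5cv/Ccr2-/- and mdx5cv diaphragm, and 889 and 464 CPM in the quadriceps, and their part was not tested.

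Spp1 had a log2 ratio of 1.68 for mdx5cv/Ccr2-/- over mdx5cv in quadriceps and −1.22 in diaphragm. Tnnt2, cardiac troponin T, had −1.02 in quadriceps and 1.35 in diaphragm, and for diaphragm over quadriceps 1.29 in mdx5cv/Ccr2-/- and −1.08 in mdx5cv mice. In mdx5cv/Ccr2-/- diaphragm 1 cell gave 92.7% of the Tnnt2 UMIs. The share of Pax7/Myf5 cells in mdx5cv/Ccr2-/- over mdx5cv was 1.34 in quadriceps and 0.929 in diaphragm.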

How the results depend on the processing

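Each library held 99 to 237 of these cells, which limits the precision of low genes, and each group had 1 library. No paired analysis was possible because each group had 1 library, and for the same reason no library could be left out. Over 12 alternative settings, 10 planned and 2 added after the data were seen, 76 of the shares and gene counts stayed within 1.5 times or inside the interval and 24 moved; no share ratio moved. The genes named as farthest apart between muscles kept their direction under every setting that gave a value. Tnnt2 reversed when cells with a UMI of further markers of other cell types were also left out, to 0.33 for mdx5cv/Ccr2-/- over mdx5cv in quadriceps and 0.41 for diaphragm over quadriceps in mdx5cv mice. The Hox list median for diaphragm over quadriceps was −1.92 in mdx5cv/Ccr2-/- and −1.94 in mdx5cv mice over 4 measured genes, and 0.43 and 0.16 with no filter on low counts, when anterior and posterior genes both entered.

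The genes at least 2-fold apart in the same direction in both muscles between genotypes numbered 5, and became 10 at a Pax7 and Myf5 threshold of 1 and also at 3, 1 without Scrublet doublets, 1 with cells weighted equally, 1 with thinned cells, 3 without cells over 1% fibroblast UMIs and 16 with no filter. Those apart in both genotypes between muscles numbered 42, and became 81 with no filter and 67 with equal weights. With no filter, the genes apart between genotypes were 216 in quadriceps and 211 in diaphragm (63 and 41), and between muscles 339 in mdx5cv/Ccr2-/- and 346 in mdx5cv mice (108 and 118). Thinned cells gave 118, 174, 216 and 220 in the same order. Equal weights gave 117 between genotypes in diaphragm, and 211 and 205 between muscles in mdx5cv/Ccr2-/- and mdx5cv mice. Without mitotic cells these were 104, 170 and 198. A pseudocount of 1 CPM gave 68 between genotypes in diaphragm. The cause was not tested, beyond fewer UMIs in thinned cells and more genes with no filter.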

Other observations

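Maf, a large Maf transcription factor gene, was left out of the ranking of named genes because of its level in leukocytes, and its values were looked at after they were seen. It had 8.91 and 8.98 CPM in mdx5cv/Ccr2-/- and mdx5cv diaphragm Pax7/Myf5 cells, against 90.2 and 83.4 CPM in the quadriceps. It was found in 7 of 99 and 11 of 208 diaphragm cells, against 100 of 237 and 59 of 136 quadriceps cells. Leukocytes had 663 and 569 CPM of Maf in the diaphragm libraries of these genotypes, against 363 and 640.4 CPM in the quadriceps libraries, and Cdh5-positive cells had 159 and 300.3 CPM against 20.6 and 44.4 CPM. In neither of those kinds of cell was the level lower in both diaphragm libraries than in both quadriceps libraries.

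Gal, which encodes the neuropeptide galanin, had 44.6 and 78.6 CPM in mdx5cv/Ccr2-/- and mdx5cv diaphragm Pax7/Myf5 cells, against 113 and 173 CPM in the quadriceps, and 10.1 and 246 CPM against 487 and 1791 CPM in Myog-positive cells. Fibroblasts had at most 0.536 CPM and leukocytes at most 1.18 CPM. In mdx5cv/Ccr2-/- diaphragm 1 Pax7/Myf5 cell gave 71.1% of its UMIs.

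Cxcl14, a chemokine gene, had 194 CPM in mdx5cv/Ccr2-/- quadriceps against 7.32 CPM in mdx5cv quadriceps, and 1 cell gave 94.8% of the UMIs behind the first value. Nppc, which encodes C-type natriuretic peptide, had 107 CPM in mdx5cv/Ccr2-/- diaphragm against 21.3 CPM in mdx5cv diaphragm, and 1 cell gave 56.5% of the UMIs behind the first value.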
